A study of Mus musculus with 12 samples.

Results

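The genes described here encode the proteins of the cytosolic ribosome of the mouse. They were taken by name and type: protein-coding genes whose symbol is Rpsa, starts with Rps or Rpl and a digit, or is Rplp0, Rplp1 or Rplp2, without the kinases that share the Rps6k prefix, without Rps19bp1 and without names that mark pseudogenes. A mean level of at least 10 CPM (counts scaled to the library total) over the 9 bulk libraries was required, so the genes were selected on their own mean level and not on a comparison of genotypes. Of 85 genes that matched by name, 82 met that level, out of 55335 genes in the count table. They comprised 33 genes of the small subunit and 49 of the large subunit, on 19 chromosomes, with 14 on chromosome 7 and 4 on the X chromosome (Rps4x, Rpl10, Rpl36a and Rpl39). The lowest genes inside the limit were Rps27rt at 19.4, Rpl22l1 at 23.0 and Rps27l at 24.9 CPM. The 3 genes outside it were far lower: Rpl3l at 0.0105 CPM, Rpl39l at 0.0100 CPM and Rpl10l, listed at 0.

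A cytosolic ribosome joins ribosomal RNA to one copy of most of these proteins, so the genes are known to be expressed together and at high levels in growing tissue. In vertebrates many of their mRNAs begin with a cytosine followed by a run of pyrimidines, the 5′ terminal oligopyrimidine (TOP) motif, through which the growth kinase complex mTORC1 controls their translation. The mammalian genome also holds many processed pseudogenes of these genes, DNA copies of old mRNAs without introns that remain close in sequence to the gene they came from.

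The cortex of E13.5 mouse embryos, during cortical neurogenesis, had been profiled by bulk RNA-seq. The embryos were bred from parents heterozygous for Med13l, a gene of the Mediator kinase module. The 3 genotypes were WT (wild type), Het (1 null allele) and KO (null on both alleles), each with 3 libraries from brain tissue, numbered 1 to 3. The sources used here state no further treatment, strain or allele design. Single-cell samples of the same genotypes were not analysed here.

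Total counts per library lay between 37909377 and 52992392, and no ribosomal protein gene fell under 517 counts in any library (Rps27rt was lowest, Rpsa highest at 51469). The count of Med13l, taken over the whole gene, did not separate the genotypes (log2 fold change 0.14, edgeR adjusted p = 0.901 for KO against WT), and does not check which part of the gene is lost, so KO and Het stand for the labels. Library Het 1 stood apart from the rest. There Tcf7l2, a gene of thalamic neurons, had 657 CPM against 14.3 to 63.3 CPM in the other libraries. The 9 thalamic and diencephalic markers tested summed to 1416 CPM there, against 144 to 238 CPM elsewhere, and Tbr1, a gene of early cortical neurons, had 52.8 CPM against 228 to 374 CPM. Whether this library holds tissue from outside the cortex was not tested, and its Het values are to be read with that limit. The other libraries also differed in makeup. The 7 ganglionic eminence markers summed to 63.9 CPM in Het 2 and 68.0 CPM in KO 1, but to 457 CPM in Het 3 and 516 CPM in KO 2. KO 2 also had the second-highest sum of the thalamic and diencephalic markers, 238 CPM. Whether dissection differed between these libraries was not tested. Het 1 was also lowest for the S phase genes and highest for the neuronal markers, and KO 1 was the reverse. The median fold changes of the ribosomal protein genes and the correlation between their pairs are therefore given with and without these 2 libraries. Fold changes of single genes and of other gene lists are given with all 9 libraries only.

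The 82 genes took 2.44%, 2.42% and 2.73% of all counts in WT, 1.98%, 2.61% and 2.32% in Het, and 2.90%, 2.21% and 2.41% in KO. The mean shares were 2.53% ± 0.173 in WT, 2.30% ± 0.318 in Het and 2.51% ± 0.359 in KO (SD, n = 3). The highest and the lowest share both came from mutant libraries, KO 1 and Het 1, and the ranges of the 3 genotypes overlapped. The ratio of small-subunit to large-subunit counts moved little, from 0.685 in Het 1 to 0.731 in KO 1. In bulk tissue, fewer cells of a type and less RNA per cell cannot be told apart.

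Levels between genes were compared per kilobase, as the mean over the 9 libraries. With all annotated exons of a gene merged as its length, the highest was Rps15, a small-subunit protein gene, at 667 ± 60.7 CPM per kilobase (SD, n = 9). Next came Rplp0, the base of the ribosomal stalk, at 563 ± 46.1, then Rps3a1 at 556 ± 53.7, Rpl23a at 472 ± 44.4 and Rpl4 at 464 ± 42.9. In this order Rplp0 and Rps3a1 differed by less than their spread between libraries, as did Rpl23a and Rpl4. The lowest were Rpl22l1 at 11.5 ± 2.38, Rpl35a at 19.2 ± 5.95, Rps19 at 27.4 ± 4.36, Rps20 at 28.4 ± 4.63 and Rpl7l1 at 30.3 ± 2.69 CPM per kilobase, of which the last 3 lay within their spread of each other.

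Part of this order came from the merged exons, which include rarely used ones: those of Rps19 span 4685 bases, while its principal transcript has 633. With the principal transcript as the length, a choice added after the values were seen, Rps15 was again highest at 840 ± 76.5 CPM per kilobase (SD, n = 9), followed by Rpl41 at 815 ± 108 and Rpl7a at 752 ± 55.3. Rps19, a protein needed to mature the small subunit, moved up to 203 ± 32.3, while Rps20 was lowest at 31.2 ± 5.09, its principal transcript being annotated with 3706 bases. Of the 5 highest genes 2 were the same by both lengths, and of the 5 lowest 3 were the same. The small-subunit genes had a median of 414 and the large-subunit genes a median of 331 CPM per kilobase of transcript.

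**Figure D1:**
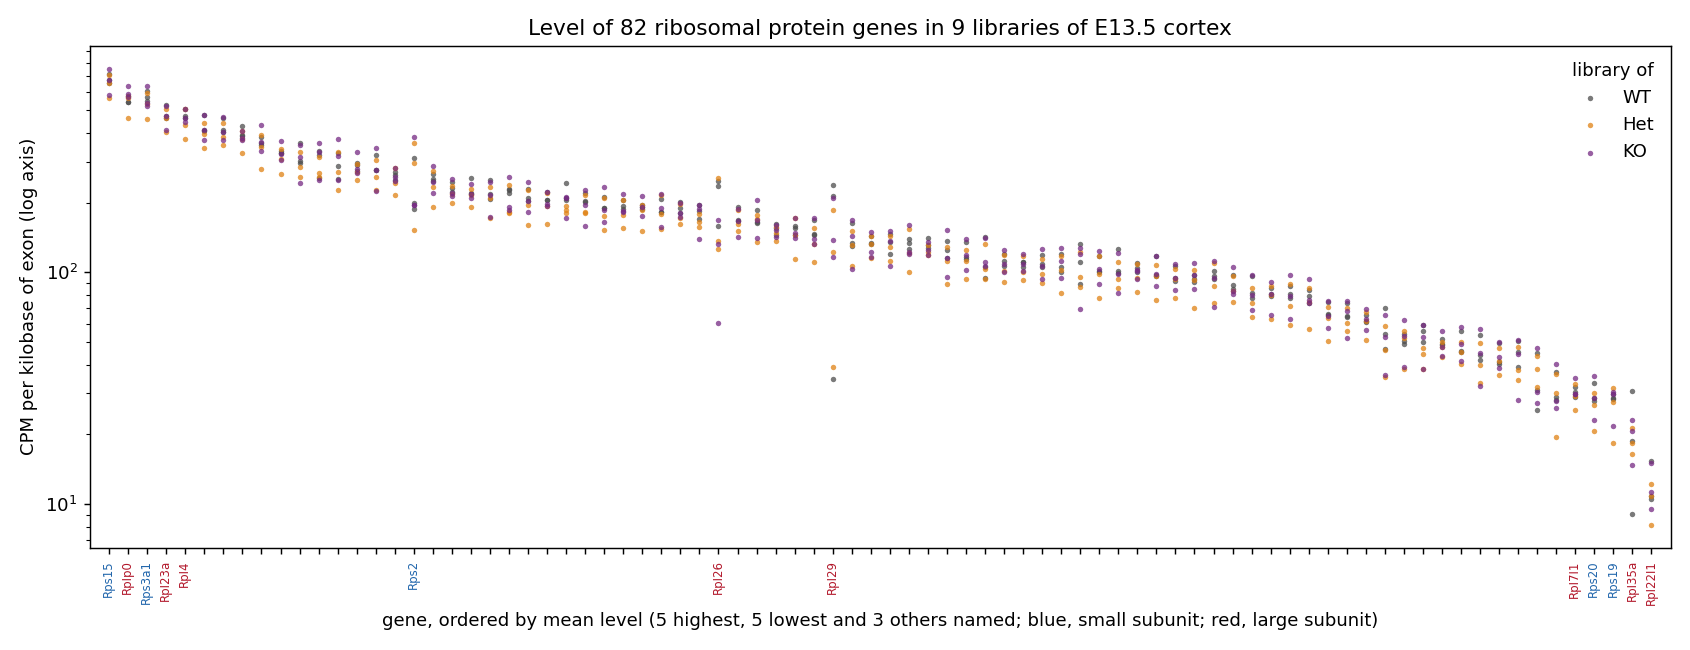
Level of the 82 ribosomal protein genes in CPM per kilobase of merged exons (log axis), with 1 point per library coloured by genotype and genes ordered by their mean; the 5 highest, the 5 lowest and Rpl29, Rpl26 and Rps2 are named on the axis. Levels run from 667 for Rps15 to 11.5 for Rpl22l1, the genotypes overlie each other, and Rpl29, Rpl26, Rps2 and Rpl35a spread more widely than their neighbours.

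Some ribosomal proteins have an additional gene in the mouse, and each of these was lower than its counterpart per kilobase of transcript. Rpl22l1 had 41.6 ± 8.58 and Rpl22 401 ± 48.4 CPM per kilobase. Rps27l and Rps27rt had 49.8 ± 10.5 and 51.7 ± 11.99, against 414 ± 68.8 for Rps27 (SD, n = 9). Rpl36al had 111 ± 12.6 and Rpl36a, on the X chromosome, 268 ± 42.2. Rpl7l1 had 80.9 ± 7.17 and Rpl7 523 ± 38.8. The mean of these 5 additional genes had a range between libraries of 0.75 on the log2 scale, against 0.52 for the whole set. Rpl22l1 measured 21.6, 21.0 and 30.6 in the WT libraries, 16.2, 24.4 and 21.5 in the Het libraries, and 29.9, 18.9 and 22.4 CPM in the KO libraries. Its highest values were in WT 3 and KO 1 and its lowest in Het 1, the genotypes overlapped, and it followed the mean of the other genes with r = 0.96 (n = 9 libraries).

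RefSeq windows around the annotated start (assembly GRCm38.p6) were matched for 62 of the 82 genes, and 32 of the 62 held a run of pyrimidines at or near the start. Such a run is broader than the TOP motif, since it may begin with a T or downstream of the start. The windows below show 10 bases before and 20 after the start of 5 of the 32 genes. These 5 were chosen after the sequences were seen, from genes whose pyrimidine run is whole within the window, as it is in most of the others. Their runs hold 10 to 18 bases, while the shortest runs counted hold 6. Capitals mark that run.
Rpl35: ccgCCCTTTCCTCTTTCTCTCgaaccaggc
Rpl15: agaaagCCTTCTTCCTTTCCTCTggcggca
Rpl35a: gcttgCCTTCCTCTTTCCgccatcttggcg
Rpl28: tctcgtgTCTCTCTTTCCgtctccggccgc
Rps6: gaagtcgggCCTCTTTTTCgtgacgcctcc
They lie at chr2:39005112-39005141 (minus strand), chr14:18270967-18270996 (minus), chr16:33056472-33056501 (plus), chr7:4792955-4792984 (plus) and chr4:86857348-86857377 (minus). A run of at least 6 pyrimidines that touched bases -3 to +10 on the sense strand was found in 51.6% of the 62 genes and in 26.3% of 27025 RefSeq genes with a window. Short pyrimidine words were searched on the sense strand from 20 bases before to 50 after the start. The word CTTTCC occurred in 30.6% of the 62 genes against 3.79% of all. For the word CTCTTT the shares were 30.6% against 3.04%, for CTTTTC 14.5% against 2.86%, and for at least 1 of these 56.5% against 8.62%. The words overlap the runs and each other, so the counts are not separate features. In the window from 250 bases before to 50 after the start, on both strands, CCGGAAG, a word bound by ETS family factors, was found in 40.3% against 9.93%, and GGGCGG in 62.9% against 38.2%. TATAAA, on the sense strand, was found in 9.68% against 9.77%, and CACGTG, the word bound by Myc and its relatives, on both strands, in 9.68% against 8.09%. A word in a window is a description and not evidence of binding.

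Over the 9 libraries the genes moved together. The mean log2 level of the 82 genes, relative to the 9-library mean, was 0.02, -0.02 and 0.17 in WT, -0.28, 0.12 and -0.06 in Het, and 0.24, -0.19 and 0.00 in KO. The spread within a genotype reached 1.32-fold in Het and 1.35-fold in KO, against 1.43-fold over all 9 libraries. KO 1 was the highest library for 57 genes and WT 3 for 20, while Het 1 was the lowest for 62 and KO 2 for 16. Pairs of these genes had a median correlation of 0.88 over the 9 libraries (Pearson and Spearman alike), and of 0.82 over the 7 libraries left without Het 1 and KO 1. These points share library depth and tissue makeup, so the values describe the set and carry no test.

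The genes that followed the rest most closely were Rpl38, a large-subunit protein gene known from mouse mutants for its role in translating Hox mRNAs, Rps15 and Rpl5, each with r = 0.99 against the mean of the others (n = 9 libraries). Rpl38 measured 67.6, 62.6 and 74.0 in the WT libraries, 48.0, 69.8 and 60.5 in the Het libraries, and 82.9, 51.8 and 62.5 CPM in the KO libraries. It was highest in KO 1 and lowest in Het 1, as was the set. Those that followed least were Rpl29 (r = -0.15), Rpl35a (r = 0.00) and Rpl26 (r = 0.25). The median coefficient of variation over the 9 libraries was 12.1% for the ribosomal protein genes and 10.7% for other coding genes at 10 CPM or more, and 9 of the 82 exceeded 20%.

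**Figure D2:**
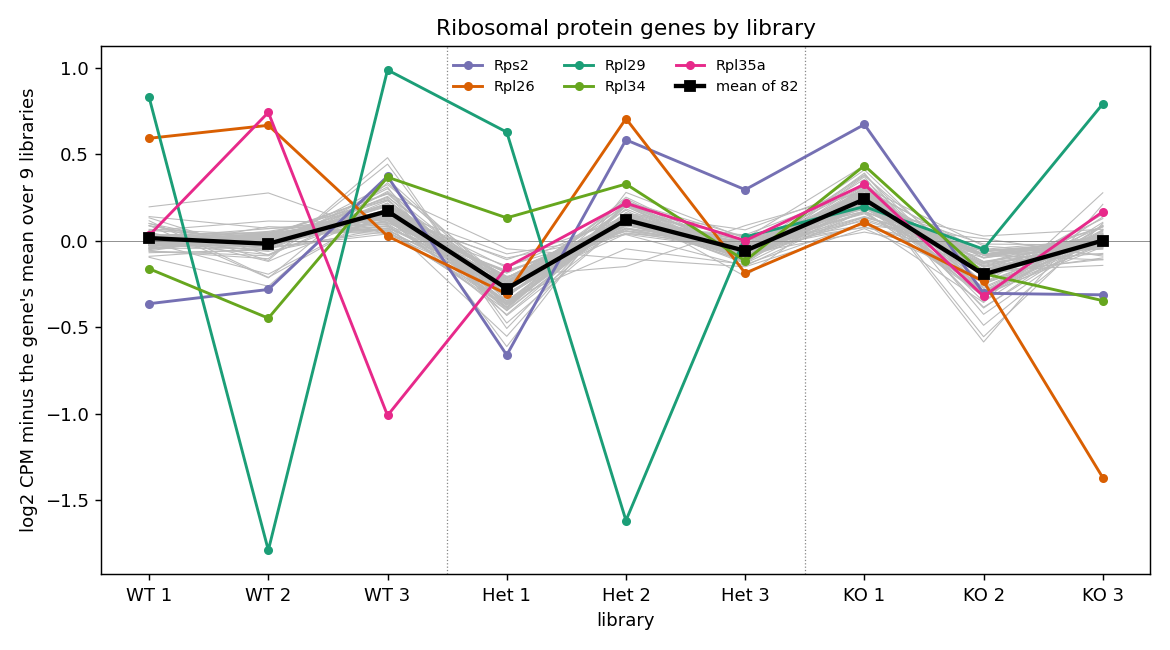
Log2 CPM of each ribosomal protein gene relative to its own mean over the 9 libraries, by library (grey lines), with the mean of the 82 genes in black and 5 irregular genes in colour. Most genes follow the black line, which runs from -0.28 in Het 1 to 0.24 in KO 1, while Rpl29, Rpl26, Rps2, Rpl35a and Rpl34 leave it in different libraries.

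No ribosomal protein gene passed the test between KO and WT, and the sign of the small median change of the set turned with single libraries. Of the 82, 0 passed the test in KO against WT (edgeR quasi-likelihood test, Benjamini-Hochberg adjusted p under 0.05), where 0.00531% of the 18844 genes tested were called. At an unadjusted p under 0.05 edgeR found 0 of the 82, against 5.72% of all genes. DESeq2 and limma-voom also called 0 after adjustment and found 1 gene each at the unadjusted level, Rpl26. The median log2 fold change of the 82 genes was -0.03, and 58 lay below 0, against 49.9% of all genes. The median over all genes was 0.00. Among other coding genes at 10 CPM or more, 64.4% of the 104 with under 1000 bases of exon lay below 0. The share was 59% of the 1894 in the next longer class and 47.5% of the 3966 with 6000 bases or more. By merged exon length, the 28 shortest ribosomal protein genes had a median of -0.05, the next 27 of -0.03 and the 27 longest of -0.02. Without KO 1 the median of the set was -0.15 with 81 genes below 0, without KO 2 it was 0.07 with 11 below 0, and without WT 3 it was 0.03 with 19 below 0. Without WT 1 and without WT 2, each left out alone, it was -0.07 and -0.06. No gene had every KO library on one side of every WT library, while 7.44% of all genes lay wholly higher and 7.56% wholly lower.

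The smallest p in KO against WT was that of Rpl26, a large-subunit protein gene (ENSMUSG00000060938, chr11:68901583-68906989). It averaged 309 ± 69.4 across WT and 174 ± 79.2 CPM across KO (SD, n = 3), a log2 fold change of -0.83 (SE 0.39, edgeR adjusted p = 0.858). Rps7 followed with a log2 fold change of -0.15 (SE 0.11, edgeR adjusted p = 0.893). Rplp0 averaged 922 ± 30.9 across WT and 994 ± 56.3 CPM across KO, a log2 fold change of 0.11 (SE 0.10, edgeR adjusted p = 0.908). The KO and WT ranges overlapped for all 3 genes.

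The median fold change of the set was below 0 in Het against WT, but no single gene passed. Of the 82 genes, 0 were called in Het against WT, where edgeR called 0% of all genes tested. At an unadjusted p under 0.05 it found 0 of them against 1.56% of all genes, and DESeq2 and limma-voom found 0 at both levels. The median log2 fold change was -0.12, with 80 genes below 0 against 49.5% of all genes, and -0.03 with 55 below 0 once Het 1 was left out. Without WT 3 it was -0.05, and without Het 2 it was -0.23. The median thus came nearest to 0 without Het 1, the library with the high Tcf7l2 value, and next without WT 3. In the mean of the set Het 2, at 0.12, stood above WT 1 and WT 2 and below WT 3, at 0.17. Between Het 3 and WT 3 alone the median log2 difference was -0.23. Between the other Het and WT libraries, Het 1 among them, it was -0.08. With all 9 libraries, other short coding genes at 10 CPM or more also lay mostly below 0 in Het against WT. These were 81.7% of the 104 with under 1000 bases of exon (median -0.08) and 70.1% of the 1894 in the next longer class (median -0.05). Of the 3966 with 6000 bases or more, 32.7% lay below 0 (median 0.04), against 97.6% of the ribosomal protein genes. The ribosomal protein genes themselves had a median of 1775.5 bases of merged exon. Their medians in Het against WT were -0.125 for the 28 shortest, -0.120 for the next 27 and -0.117 for the 27 longest. Of these, 100%, 96.3% and 96.3% lay below 0, so the shift of the set differed little with exon length.

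Rps7 and Rpl30 were the only genes with every Het library below every WT library, 2 of 82, against 2.72% of all genes; 0 were wholly higher, against 2.46%. Rps7 (ENSMUSG00000061477, chr12:28630854-28635953) measured 422, 413 and 487 in the WT libraries, 391, 375 and 364 in the Het libraries, and 424, 346 and 427 CPM in the KO libraries. Its Het values were close together, and KO 2 lay below them and KO 1 and KO 3 above. Its log2 fold change in Het against WT was -0.23 (SE 0.11, edgeR adjusted p = 0.999). Rpl30 (ENSMUSG00000058600, chr15:34440505-34443640) measured 169, 178 and 151 in the WT libraries, 116, 143 and 134 in the Het libraries, and 158, 115 and 179 CPM in the KO libraries, with a log2 fold change of -0.34 (SE 0.16, edgeR adjusted p = 0.999). With the counts of their pseudogene copies added, as described further on, the genotypes overlapped for both genes. Rpl28, next by p, had 271, 266 and 311 CPM in WT and 204, 286 and 243 CPM in Het, which overlapped (log2 fold change -0.21, edgeR adjusted p = 0.999).

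KO against Het gave the opposite sign from Het against WT, with no call. Of the 82 genes, 0 passed, while 0.00531% of all genes were called. At an unadjusted p under 0.05 edgeR found 0 against 7.74% of all genes, and DESeq2 and limma-voom found 0 at both levels. The median log2 fold change was 0.09, with 5 genes below 0 against 51% of all genes. It was -0.01 without Het 1, -0.02 without KO 1 and -0.12 without both, and 0.20 without Het 2 and 0.18 without KO 2, so the direction turned with 1 library. No gene was wholly higher or lower in KO than in Het, where 6.05% and 5.05% of all genes were. Both comparisons share the Het libraries. In KO against Het, 41.3% of the 104 other coding genes with under 1000 bases of exon lay below 0. The share was 46.8% in the next longer class and 60.6% of those with 6000 bases or more. The 28 shortest ribosomal protein genes had a median of 0.08, the next 27 of 0.10 and the 27 longest of 0.10. Rplp0 had the smallest p. It measured 904, 905 and 958 in the WT libraries, 771, 958 and 934 in the Het libraries, and 1058, 949.6 and 976 CPM in the KO libraries, with a log2 fold change of 0.16 in KO against Het (SE 0.10, edgeR adjusted p = 0.613). The 2 other proteins of the stalk, Rplp1 and Rplp2, had log2 fold changes of 0.19 and 0.08 (edgeR adjusted p = 0.726 and 0.898).

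Genes known from inherited ribosome disorders also did not pass the test. Rps19, a gene mutated in human Diamond-Blackfan anaemia, averaged 136 ± 3.28 across WT, 121 ± 31.6 across Het and 128 ± 22.3 CPM across KO (SD, n = 3). Rpl5 and Rpl11, whose proteins bind 5S ribosomal RNA and can hold back the p53 inhibitor MDM2, averaged 478 ± 43.0 and 263 ± 20.9 across WT and 471 ± 72.2 and 258 ± 32.9 CPM across KO. Rpl10, an X-linked gene of the large subunit mutated in some human neurodevelopmental disorders, averaged 475 ± 42.5 across WT, 434 ± 38.5 across Het and 456 ± 32.3 CPM across KO. The log2 fold changes of these 4 genes lay between -0.17 and -0.10 in Het against WT and between -0.09 and -0.02 in KO against WT, and no edgeR adjusted p was under 0.956.

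**Figure D3:**
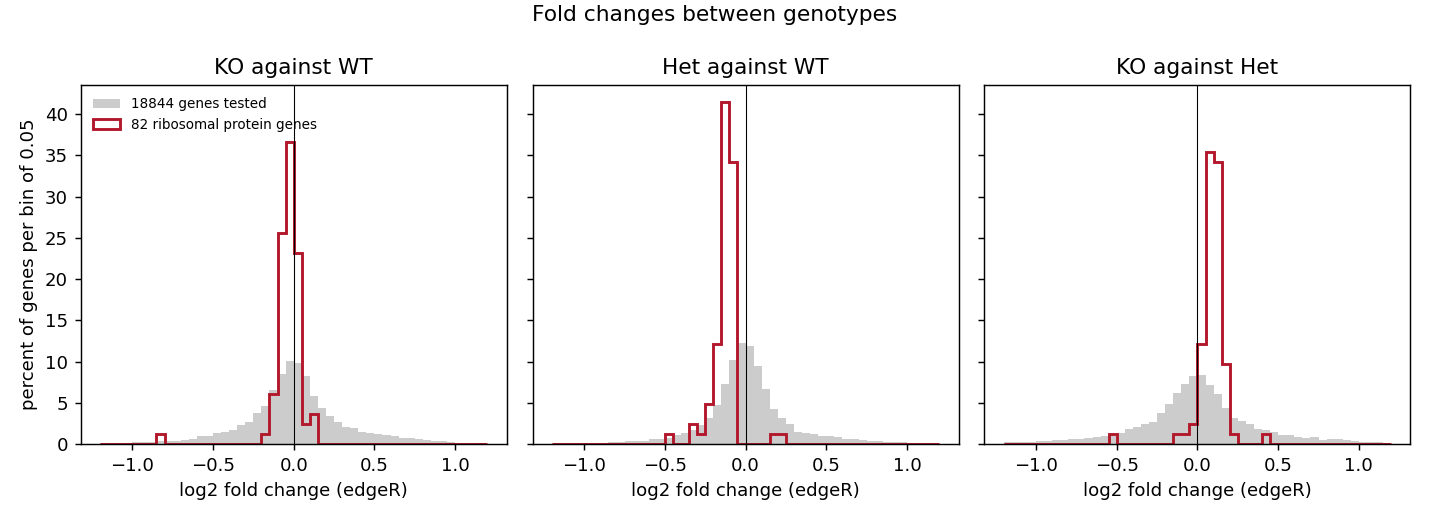
Distribution of edgeR log2 fold changes in bins of 0.05, as percent of genes, for all genes tested (grey) and for the 82 ribosomal protein genes (red), in 3 comparisons. The ribosomal protein genes form a narrow peak with medians of -0.03 (KO against WT), -0.12 (Het against WT) and 0.09 (KO against Het), inside the spread of all genes, with Rpl26 at -0.83 standing alone in KO against WT.

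The precision of these comparisons was set by the spread between 3 libraries a group. The median half-width of the 95% intervals was 0.33 on the log2 scale in each comparison. The interval lay within a 1.5-fold change either way for 74 of the 82 genes (KO against WT), 67 (Het against WT) and 70 (KO against Het). It lay within 2-fold for 79, 79 and 80 genes. Intervals were widest for Rpl29, at 1.59 on either side in KO against WT.

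Several genes that did not follow the set had pseudogene copies that moved the other way. In GENCODE M21, 1143 annotated pseudogenes matched 78 of the 82 genes at 90% identity or more over at least 150 bases and 50% of the pseudogene. Of these copies, 756 had a count, and together they held 14.6% to 17.8% of the counts of the ribosomal protein genes, depending on the library. Rpl7a had the most, with 92 copies. How the authors counted reads that match several places is not given in the sources used here, so a gene and its closest copies are uncertain as separate features. The genes shown next were chosen after their values were seen.

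Rpl29, a large-subunit protein gene (ENSMUSG00000048758, chr9:106429454-106431568), varied most. It measured 241, 39.2 and 269 in the WT libraries, 209, 44.1 and 138 in the Het libraries, and 155, 131 and 235 CPM in the KO libraries. The summed counts of its 80 copies measured 59.8, 218 and 68.3 in the WT libraries, 43.3, 233 and 131 in the Het libraries, and 154, 129 and 59.0 CPM in the KO libraries. WT 2 and Het 2, the lowest libraries for the gene, were the highest for the copies, and gene and copies had r = -0.95 (n = 9 libraries). Gene and copies together ranged only from 253 to 337 CPM, and the coefficient of variation fell from 51.4% to 9.96%. The leading copies were Gm13841 (chr5:115801677-115802159) and Gm8210 (chr1:43189156-43189638), each 99.4% identical to the gene's mRNA over 483 bases. Gm13841 measured 6.02, 91.4 and 7.30 in the WT libraries, 3.70, 96.9 and 45.9 in the Het libraries, and 52.4, 47.7 and 6.19 CPM in the KO libraries. Gm8210 measured 5.35, 89.9 and 6.59 in the WT libraries, 3.17, 96.3 and 44.7 in the Het libraries, and 51.9, 47.0 and 5.63 CPM in the KO libraries. These copies on different chromosomes thus had nearly the same value in each library. The values fell into 3 tiers, under 8 CPM in 4 libraries, between 44 and 53 CPM in 3, and above 89 CPM in 2. Whether the same reads were counted at both places was not tested.

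Rpl26 likewise moved opposite to a copy over the libraries, and it had the largest fold change between genotypes in the set. The gene measured 339, 357 and 229 in the WT libraries, 182, 367 and 198 in the Het libraries, and 242, 191 and 87.0 CPM in the KO libraries. Its copy Gm15772 (chr5:3236431-3236868), with 2 mismatches in 438 aligned bases, measured 17.0, 16.4 and 163 in the WT libraries, 137, 16.8 and 139.5 in the Het libraries, and 167, 136 and 271 CPM in the KO libraries. The copy again lay in 3 tiers: near 17 CPM in WT 1, WT 2 and Het 2, between 136 and 167 CPM in 5 libraries, and 271 CPM in KO 3, where the gene was lowest. With all 13 copies added, Rpl26 averaged 377 ± 18.4 across WT, 349 ± 33.9 across Het and 367 ± 42.5 CPM across KO (SD, n = 3). The log2 fold change in KO against WT went from -0.83 to -0.04 (edgeR adjusted p = 0.970), and the coefficient of variation over the 9 libraries from 38.6% to 8.57%.

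The closeness of gene and copy is seen in these stretches of 60 bases on the coding strand (GRCm38), shown because each spans a place where the pair differs; capitals mark the differing bases.
Rpl29: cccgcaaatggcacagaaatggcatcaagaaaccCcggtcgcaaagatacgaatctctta
Gm13841: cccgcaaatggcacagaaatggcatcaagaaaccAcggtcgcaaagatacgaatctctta
Rpl26: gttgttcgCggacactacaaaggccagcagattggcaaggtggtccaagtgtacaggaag
Gm15772: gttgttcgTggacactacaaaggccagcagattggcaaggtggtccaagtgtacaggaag
Rps2: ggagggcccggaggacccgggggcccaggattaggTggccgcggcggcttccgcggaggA
Rps2-ps13: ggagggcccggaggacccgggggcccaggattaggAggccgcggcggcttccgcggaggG
Rpl34: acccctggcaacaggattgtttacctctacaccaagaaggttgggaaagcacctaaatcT
Rpl34-ps1: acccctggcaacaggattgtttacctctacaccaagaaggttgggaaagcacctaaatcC
The Rpl29 and Gm13841 stretches lie at chr9:106430308-106430367 (plus strand) and chr5:115802063-115802122 (minus), and those of Rpl26 and Gm15772 at chr11:68903179-68903238 and chr5:3236599-3236658 (both plus). The Rps2 and Rps2-ps13 stretches lie at chr17:24720300-24720359 and chrX:52898612-52898671 (both plus), and those of Rpl34 and Rpl34-ps1 at chr3:130729084-130729143 (minus) and chr6:71124682-71124741 (plus).

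Rps2, a small-subunit protein gene (ENSMUSG00000044533, chr17:24718116-24721929), measured 344, 364 and 573 in the WT libraries, 279.6, 663 and 543 in the Het libraries, and 705, 358 and 356 CPM in the KO libraries. Its copy Rps2-ps13 on the X chromosome, with 7 mismatches in 882 aligned bases, measured 227, 239 and 11.8 in the WT libraries, 181, 5.85 and 11.5 in the Het libraries, and 7.17, 226 and 228 CPM in the KO libraries. The 5 libraries with over 180 CPM on the copy were the 5 lowest for the gene. Adding all 64 copies lowered the coefficient of variation of Rps2 from 33.8% to 10.5%. The log2 fold change in KO against WT was 0.15 for the gene alone and 0.06 with copies (edgeR adjusted p = 0.973 and 0.960).

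Rpl34 and Rpl35a, both of the large subunit, were also uneven, but not in the same way. Rpl34 (ENSMUSG00000062006, chr3:130726831-130730398) measured 82.2, 67.4 and 119 in the WT libraries, 101, 115 and 84.8 in the Het libraries, and 124, 80.6 and 72.3 CPM in the KO libraries. Its copy Rpl34-ps1, with 2 mismatches in 353 aligned bases, measured 24.8, 48.0 and 6.29 in the WT libraries, 5.32, 5.99 and 26.6 in the Het libraries, and 6.68, 22.3 and 43.7 CPM in the KO libraries. The copy was high in WT 2 and KO 3, where the gene was lowest, and the coefficient of variation went from 22.6% to 7.76% with the copies added. Rpl35a (ENSMUSG00000060636, chr16:33056453-33060189) measured 66.04, 108 and 32.1 in the WT libraries, 58.1, 75.1 and 64.7 in the Het libraries, and 81.0, 51.7 and 72.6 CPM in the KO libraries. Its 23 copies summed to 58.9, 30.3 and 107 CPM in WT, 49.1, 63.9 and 58.5 CPM in Het, and 72.6, 48.6 and 62.4 CPM in KO. Here gene and copies were opposite in WT 2 and WT 3 only, and in the other libraries they rose and fell together. The coefficient of variation went from 31.0% to 13.1%.

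**Figure D4:**
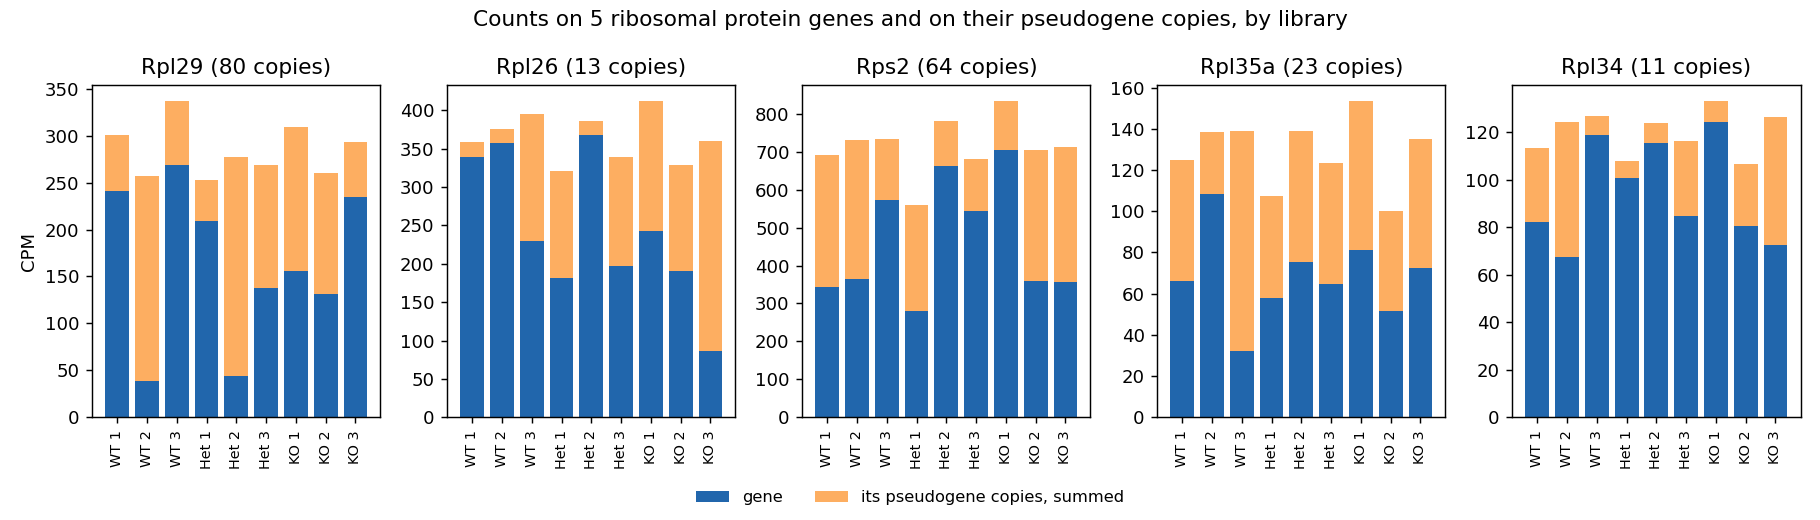
CPM of Rpl29, Rpl26, Rps2, Rpl35a and Rpl34 (blue) and the summed CPM of their annotated pseudogene copies (orange) stacked by library, with the y axis from 0. The gene's part differs between libraries up to 6.86-fold for Rpl29, while the height of the stacked bars is much more even, from 253 to 337 CPM for Rpl29.

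The same was milder in 4 further genes. Rpsa, the small-subunit protein also known as the laminin receptor, had 813, 849 and 794 CPM in WT 2, Het 2 and KO 2, the libraries where its copy Rpsa-ps10 had 329, 327 and 348 CPM, against 41.2 to 59.5 CPM in the other 6. Of these 6 libraries only Het 1, at 816 CPM, was as low for the gene. Rpl30, in turn, had its copies summed at 8.31, 9.16 and 52.7 CPM in WT, 39.4, 51.1 and 47.3 CPM in Het, and 56.9, 41.0 and 8.63 CPM in KO. The copies of Rpl30 were thus higher in every Het library than in WT 1 and WT 2, and the gene was lower. Rps7 and Rpl21 were the others. Rpl29, Rpl26, Rps2, Rpl35a, Rpl34, Rpsa, Rpl30, Rps7 and Rpl21 were the 9 genes with r under -0.5 between gene and copies, of 46 genes whose copies held at least 10% of the gene's level. In 34 of the 46 the correlation was above 0.5, so that gene and copies rose and fell together.

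With the copies added to every gene, an alternative chosen after the data had been seen, the most variable genes were more even. The median coefficient of variation moved little, from 12.1% to 11.4%. It fell in 27 of the 46 genes whose copies held at least 10% of the gene's level. The genes with a coefficient of variation over 20% went from 9 to 3 (Rps27rt, Rps27l and Rpl22l1), and the median correlation between pairs from 0.88 to 0.91. Again edgeR called 0 genes in any of the 3 comparisons, and the smallest edgeR p was 0.439 (KO against WT), 0.177 (Het against WT) and 0.226 (KO against Het). The median log2 fold changes were -0.03, -0.12 and 0.10, and all 82 genes lay below 0 in Het against WT. With Het 1 also left out, the median in Het against WT was -0.03 and 60 genes lay below 0. No gene was without overlap between the genotypes. A read counted at more than one place would be counted more than once in these sums.

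Other genes of protein synthesis were described from lists, with edgeR log2 fold changes and 0 genes called in any list and comparison. Among 15 other genes with a TOP motif or a place on the ribosome, the median was 0.04 (KO against WT), -0.08 (Het against WT, with 14 below 0) and 0.10 (KO against Het). Fau, which encodes a small-subunit protein fused to a ubiquitin-like one and so falls outside the naming rule, measured 102, 95.1 and 115 in the WT libraries, 82.8, 101 and 95.1 in the Het libraries, and 114, 85.1 and 101 CPM in the KO libraries. Rack1, a scaffold on the small subunit, measured 571, 605 and 602 in the WT libraries, 488, 651 and 552 in the Het libraries, and 672, 582 and 573 CPM in the KO libraries. Both genes were lowest in Het 1, like the set, and their genotypes overlapped.

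The 38 ribosome biogenesis factors had medians of 0.05 (KO against WT), -0.04 (Het against WT) and 0.10 (KO against Het), in which 5, 0 and 4 genes were wholly higher, where 7.44%, 2.46% and 6.05% of all genes were. Rrs1, a factor of large-subunit assembly, averaged 32.6 ± 1.88 across WT, 29.2 ± 4.04 across Het and 35.3 ± 2.16 CPM across KO (SD, n = 3; edgeR adjusted p = 0.607 for KO against Het). The 29 initiation factors had medians of 0.04, -0.00 and 0.03. Eif4g1, the scaffold of the cap-binding complex, averaged 676 ± 45.2 across WT and 771 ± 14.2 CPM across KO, and its KO values all lay above the WT values (log2 fold change 0.19, SE 0.08, edgeR adjusted p = 0.858). Of the 29 initiation factors, 2 were wholly higher and 2 wholly lower in KO than in WT, where 7.44% and 7.56% of all genes were. Of 7 elongation factors, 0 were wholly higher and 2 wholly lower. Eef1a1, the main elongation factor gene, averaged 8545 ± 250 across WT, 8230 ± 708 across Het and 8368 ± 329 CPM across KO. Eif4ebp1, a repressor of cap-dependent translation under mTORC1, averaged 3.58 ± 0.335 across WT, 3.31 ± 1.15 across Het and 5.86 ± 1.13 CPM across KO (edgeR adjusted p = 0.858 for KO against WT). Its KO libraries all lay above the WT libraries. Of the 16 mTORC1, Myc and TOP regulators, 1 was wholly higher in KO than in WT and 2 were wholly lower. Rrn3, a factor that recruits RNA polymerase I to ribosomal DNA, averaged 117 ± 1.68 across WT, 126 ± 2.18 across Het and 115 ± 2.27 CPM across KO (edgeR adjusted p = 0.999 for Het against WT and 0.607 for KO against Het).

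Other measures also differed between the libraries, though not always in step with the ribosomal protein genes. In Het 1, where the set stood at -0.28, the S phase genes stood at -0.77 and the neuronal markers at 0.90. In KO 1, where the set stood at 0.24, they stood at 0.38 and -0.97. In KO 2, the second-lowest library of the set at -0.19, the S phase genes stood at 0.06 and the neuronal markers at -0.17. Other markers in KO 2 stood further from 0: ganglionic eminence at 1.76, thalamus and diencephalon at 1.29, meninges at 0.84 and intermediate progenitors at -0.33. In WT 3, where the set stood at 0.17, the S phase genes stood at -0.07, while 104 other coding genes with under 1000 bases of exon stood at 0.23. Those short genes stood at -0.10 in Het 1 and at 0.12 in KO 1, and 3966 other coding genes with 6000 bases or more stood at 0.07, -0.11 and -0.10 in Het 1, KO 1 and WT 3. Within the set, the 28 shortest, the next 27 and the 27 longest genes stood at -0.26, -0.31 and -0.26 in Het 1. They stood at 0.26, 0.24 and 0.23 in KO 1, and at 0.23, 0.17 and 0.12 in WT 3. The part of cell makeup, exon length and library in the movements of the set was not tested. Of the 10 neuronal markers, 10 were above 0 in Het against WT and 0 in KO against WT. Their summed level ran from 4026 to 4331 CPM in WT. It ran from 3249 CPM in Het 2 to 6597 CPM in Het 1, and from 2056 CPM in KO 1 to 4107 CPM in KO 3. Of the 7 meningeal markers, 7 were above 0 in KO against WT, with sums from 543 to 1045 CPM in WT and from 886 to 2016 CPM in KO.

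**Figure D5:**
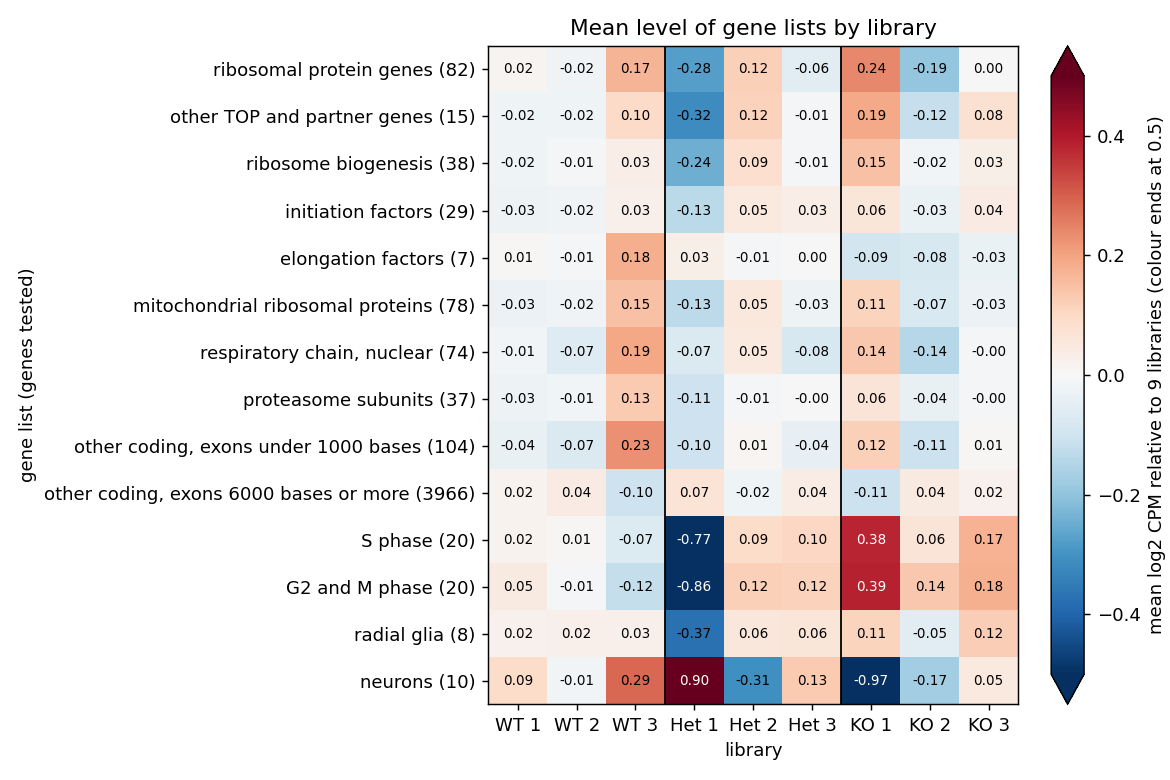
Mean log2 CPM of 14 gene lists in each library relative to the 9-library mean, in red where higher and blue where lower, with the value printed in each field and the number of genes tested after each name. The ribosomal protein genes are low in Het 1 (-0.28) and high in KO 1 (0.24), as are the S phase genes, and high in WT 3 (0.17), as are other coding genes with under 1000 bases of exon.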

How the data were processed

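The values used were the authors' deposited whole-number read counts per Ensembl gene for 9 bulk libraries, not normalised. For bulk and single-cell samples together, the submitters' processing notes list build mm10 with STAR 25.2b and StringTie 2.2.1, beside FastQC 0.11.9 and tools for single cells. The counting program, annotation, strand setting and treatment of reads with several matches are not given in the sources used here. Symbols and positions came from GENCODE M21 (GRCm38), which held 55154 of the 55335 IDs. Tests used edgeR 4.0.16 under R 4.3.3 (quasi-likelihood F test, TMM, filterByExpr, robust dispersions, all 9 libraries in 1 fit, Benjamini-Hochberg over 18844 genes). DESeq2 1.42.0 and limma-voom 3.58.1 were alternatives. CPM values use TMM-scaled totals, except for the level of 10 CPM in the choice of genes and the 3 values on either side of it, which use plain totals. Standard errors come from the F statistic, and the intervals have a confidence of 95%. P-values measure the spread between libraries, which the labels call separate brain tissues.

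Pseudogene copies were found with blastn 2.17.0. Promoter windows are RefSeq's (GRCm38.p6). The ribosomal protein genes, the gene lists and the tests were chosen with earlier results of these data known. Named genes were those with the 3 smallest p in each comparison, the 5 highest and lowest by level per kilobase, the additional genes with their counterparts, the 3 following the others most and least, those nearest 10 CPM, Rps19, Rpl5, Rpl11, Rpl10, the stalk genes, and, from lists, those with the smallest p. Genes of the copy analysis, Rpl41, Rpl7a, Rack1, Fau and Eef1a1 were added after their values were seen. On counts simulated for KO against WT, edgeR, run on 18533 genes, recovered 10% of the changes of 1.5-fold, 60% of 2-fold and 96% of 4-fold (50 genes each). It also made 4 false calls. The changed genes were drawn at random from expressed genes, and each gene was simulated independently. The ribosomal protein genes move together between libraries, so these shares do not give the power for them. Some genes are not reported here by name.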

Additional observations from a re-analysis of the deposited data

How the results depend on the processing

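No ribosomal protein gene was called in any comparison under any of the alternatives run: other size factors, filters, DESeq2, limma-voom, fits of 2 genotypes, the description letter, other level limits for the genes, pseudogene copies added, and leaving out each library (0 calls in each). The median log2 fold change ran, with single libraries left out, from -0.149 (without KO 1) to 0.0701 (without KO 2) in KO against WT, from -0.225 to -0.0258 in Het against WT and from -0.0223 to 0.197 in KO against Het. Without Het 1 and KO 1, an alternative chosen after seeing the data, it was -0.122 in KO against Het instead of 0.0936; the cause was not tested. In KO against WT it was also 0.0284 without WT 3. The share of counts ran from 2.43% to 2.58% in WT, 2.15% to 2.47% in Het and 2.31% to 2.66% in KO. By the letter in the sample description (D, then F) the medians were 0.0244 and -0.168 in KO against WT, -0.0782 and -0.227 in Het against WT, and 0.0992 and 0.0651 in KO against Het, with 1 library per genotype in F.

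The replicate numbers gave no uniform pairing. Correlations of deviations over all genes ran from -0.270 to 0.269 for same-numbered libraries and from -0.305 to 0.390 for the others. The libraries numbered 3 carry the letter F in every genotype, and their pairs had 0.0824, 0.152 and 0.269. On the second principal component (16.5% of the variance), WT 3, Het 3 and KO 3 stood at 39.7, 32.6 and 28.9, against at most 7.93 in the D libraries. What sets the F libraries apart was not tested. With the replicate number as a block, 0 ribosomal protein genes were called, the medians were -0.0272, -0.119 and 0.0919, and Rpl26 had the smallest p in KO against WT (edgeR adjusted p = 0.859). The spread between 3 libraries a group limited the precision: the median half-width of the 95% intervals was 0.327 on the log2 scale.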

Other observations

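The protein genes of the mitochondrial ribosome, a separate set of 78 tested genes made in the nucleus, had a narrower range than the cytosolic ones: their mean log2 level was -0.03, -0.02 and 0.15 in WT, -0.13, 0.05 and -0.03 in Het, and 0.11, -0.07 and -0.03 in KO, with WT 3 highest and Het 1 lowest. Their median log2 fold change was -0.03 in KO against WT and -0.06 in Het against WT, with 65 of 78 below 0, and edgeR called 0 in each. The 74 tested nuclear genes of the respiratory chain had medians of -0.06 and -0.07, with 59 and 66 below 0, and the 37 proteasome subunits had medians of -0.01 and -0.07, with 23 and 31 below 0, again with 0 called by edgeR. These lists were chosen after the data had been seen.

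Gm8730, a processed pseudogene of Rplp0 on chromosome 8, had 56.6, 51.8 and 7.08 CPM in WT, 24.0, 58.2 and 7.08 CPM in Het, and 8.33, 7.46 and 6.71 CPM in KO. It was low in every KO library and in WT 3 and Het 3, so the genotypes overlapped, while Rplp0 itself stayed between 771 and 1058 CPM.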
